A study of Mus musculus with 6 samples.

Results

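The macrophage and lysozyme genes described here are 10 mouse genes, Lyz1, Lyz2, C1qa, C1qb, C1qc, Csf1r, Cd68, Mrc1, Cd14 and Marco. Every probe set whose platform annotation gives one of these symbols was taken, which gave 17 of the 45037 probe sets tested, 4 for the 2 lysozymes and 13 for the 8 macrophage genes. By gene these are 10 of 18193. The lungs came from mouse embryos of strain C57/BL6 at E18.5, shortly before birth. In 3 Smad1 CKO embryos Smad1, which relays signals of bone morphogenetic protein receptors to the nucleus, had been knocked out in the lung epithelium, and 3 wild type embryos were their pair mates. Strain, age and tissue (the left lung lobe) were shared by both groups. The sources used here name neither the Cre driver nor the floxed allele, nor whether wild type embryos carried them. Affymetrix Mouse430_2 arrays, 1 per lobe, measured the RNA, and values are the deposited intensities. A difference is the log2 level in a Smad1 CKO lung minus that in its wild type pair mate, averaged over 3 pairs unless a pair is named.

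Lysozymes are secreted enzymes that cut the peptidoglycan of bacterial cell walls. In the mouse they are encoded by 2 closely related genes, and in the lung Lyz2 is made both by macrophages and by alveolar type 2 cells, the epithelial cells that make surfactant. The other 8 genes are used as markers of macrophages. Macrophages reach the fetal lung from the yolk sac and the fetal liver. They depend on the receptor encoded by Csf1r, and they take up particles and debris through receptors such as those encoded by Mrc1 and Marco. Some of these genes are not confined to macrophages: Cd14 is also made by neutrophils and monocytes, and Mrc1 by some endothelial cells. In whole-lobe RNA, fewer cells of a type and less RNA per cell cannot be told apart.

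The arrays had median intensities of 69.96 to 77.8, and 2 of them stood apart. Smad1 CKO 3 had an 18S ribosomal RNA control signal of 2887, against 242.5 to 297.2 on the other 5 arrays, and in its pair bright probe sets lay lower as a whole. Among the 450 probe sets with a mean log2 of 12 or more, the median difference was -1.90 in pair 3, against -0.13 in pair 1 and 0.01 in pair 2. Smad1 CKO 1 stood apart in Eif2s3y, a gene of the Y chromosome, with a log2 level of 3.78 against 7.06 to 9.04 on the other 5 arrays. Xist, the RNA of the inactive X chromosome, was at 10.95 on it, against 6.07 to 7.7 on the other 5. By these 2 genes pair 1 sets a female Smad1 CKO lung against a male wild type lung, and the part of sex in its differences was not tested. Pair 2 holds neither Smad1 CKO 1 nor Smad1 CKO 3. Smad1 itself was at 10.12, 10.62 and 9.05 (log2) in the Smad1 CKO lungs and at 10, 10.09 and 9.53 in the wild type lungs, and its probe sets cannot check the labels, since the deleted part is not given.

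The lysozymes lay lower in Smad1 CKO lungs in all 3 pairs, while the macrophage genes did not share one direction. None of the 17 probe sets passed at an adjusted p of 0.05 in limma (lowest adjusted p = 0.367), where 0.00222% of all probe sets passed. At an unadjusted p under 0.05 there were 5 of the 17, against 12.7% of all probe sets. All 4 lysozyme probe sets were lower in every pair and had groups that did not overlap, against 24.1% and 5.36% of all probe sets in that direction. Among probe sets with a mean log2 of 12 or more, which hold the bright lysozyme probe sets, 44.2% were lower in every pair. Of the 13 macrophage probe sets 2 were lower in every pair, 3 were higher in every pair (22.7% of all probe sets) and 8 changed sign between pairs. Among the 13, 1 dim probe set of Marco had groups that did not overlap, with Smad1 CKO higher (4.7% of all probe sets), and none did with Smad1 CKO lower. By gene, with the brightest probe set of each, the groups did not overlap for both lysozymes, against 6.05% of all genes lower in that way, and overlapped for all 8 macrophage genes, where 4.25% of all genes were higher without overlap. The 8 macrophage genes had a median difference of -0.23, which turned to 0.16 after cyclic loess and 0.035 after quantile normalization. The 2 lysozymes had one of -1.58, beside -0.09 over all 18193 genes and -0.68 over probe sets with a mean log2 of 12 or more. The lysozyme median was -0.9 after cyclic loess and -1 after quantile normalization. In pair 2 the medians were 0.11 for macrophage genes and -1.10 for lysozymes, beside 0.00 over all genes.

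**Figure D1:**
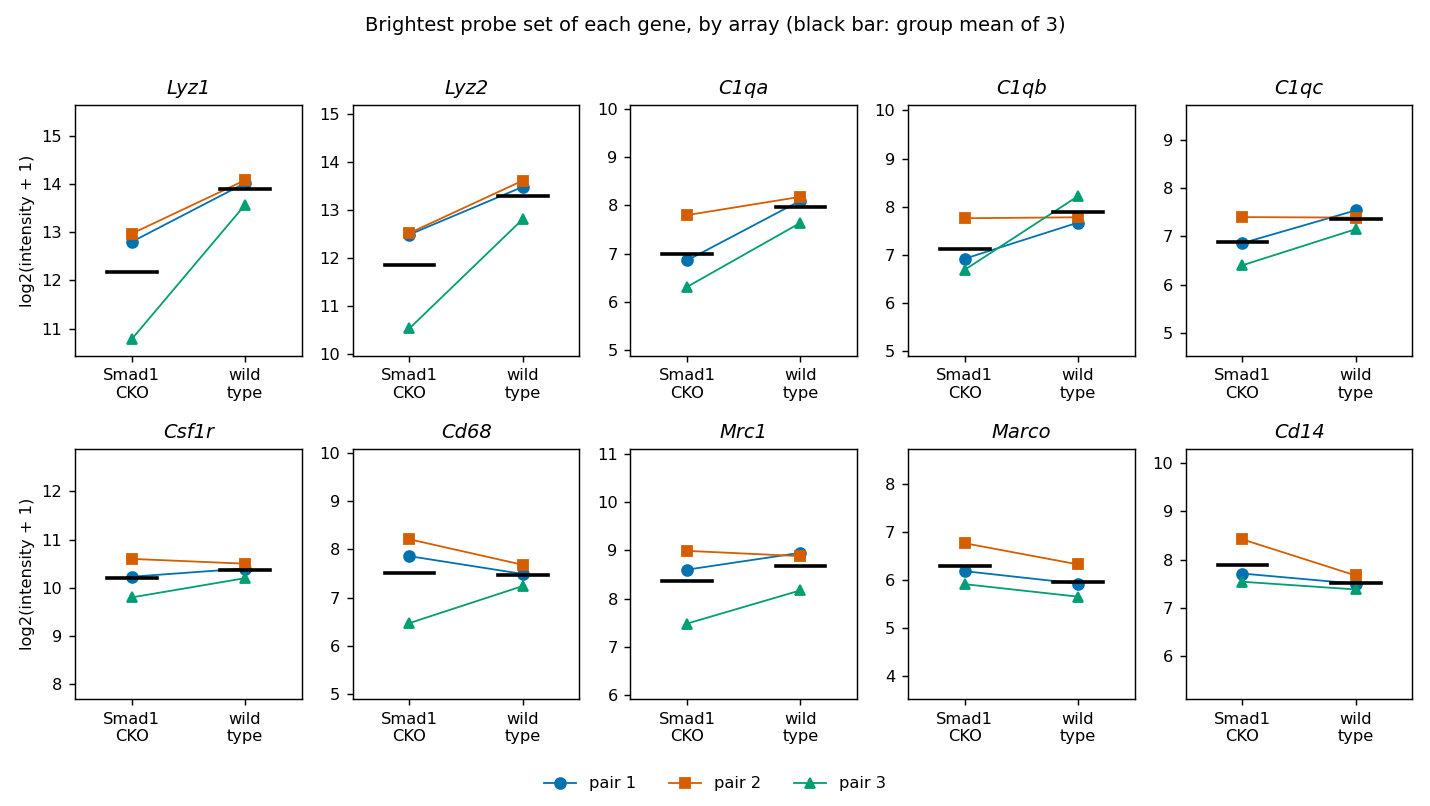
log2(intensity + 1) of the brightest probe set of each gene on the 6 arrays, with Smad1 CKO left of wild type, a line joining the arrays of a pair, and a black bar at the mean of 3. Every panel spans the same log2 range. The Smad1 CKO arrays lie below all wild type arrays for Lyz1 and Lyz2, while the groups overlap in the other 8 panels.

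Lyz2, also called lysozyme M, is the lysozyme of macrophages and other myeloid cells. Its probe set had intensities of 5732, 5876 and 1483 in Smad1 CKO lungs 1 to 3, against 11421, 12470 and 7165 in wild type lungs 1 to 3. The highest Smad1 CKO value lay below the lowest wild type value. The mean difference was -1.45 ± 0.71 (SD over 3 pairs), with a 95% interval of -2.19 to -0.71, which is 2.73-fold lower (adjusted p = 0.367). The pair differences were -0.99, -1.09 and -2.27, so pairs 1 and 2 lay close together and pair 3 was lower. Without pair 3 the mean was -1.04, a 2.06-fold lower intensity. Among all 18193 genes 0.319% had a difference as low as that of Lyz2, and 0.649% did without pair 3.

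Lyz1, also called lysozyme P, is best known from Paneth cells of the intestine. Its brightest probe set had intensities of 7119, 8035 and 1758 in Smad1 CKO lungs, against 16634, 17290 and 12195 in wild type lungs. These groups did not overlap either. The mean was -1.71 ± 0.94 (SD), with -1.22, -1.11 and -2.79 in the pairs (adjusted p = 0.367), and -1.16 without pair 3. The second probe set gave 3220, 4453 and 975.9 in Smad1 CKO lungs, against 10313, 10797 and 7286 in wild type lungs. Its difference was the lowest of all 17 probe sets, at -1.95 ± 0.84, with -1.68, -1.28 and -2.90 in the pairs (adjusted p = 0.367).

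The third probe set of Lyz1 was dim. It read 31.1, 26.8 and 23.9 in Smad1 CKO lungs, against 33.8, 36.9 and 40.6 in wild type lungs, below the array median on all 6 arrays. Its difference was -0.43 ± 0.31, with -0.12, -0.44 and -0.74 in the pairs. Both bright Lyz1 probe sets carry the suffix that Affymetrix gives where probes may also match other transcripts, and Lyz1 and Lyz2 are closely related copies. How much of the bright Lyz1 signal came from Lyz2 RNA cannot be told apart here, and the 2 genes are not independent measurements.

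The likeness of the 2 lysozyme genes extends to their promoters, which is why both are shown. They are direct neighbours on chromosome 10, with 0 protein-coding genes between them. The 250 bases before each start, from RefSeq on GRCm38.p6, are written 5′ to 3′ on the gene's strand (minus), and capitals mark the longest run that both share.
Lyz1, chr10:117292869-117293118: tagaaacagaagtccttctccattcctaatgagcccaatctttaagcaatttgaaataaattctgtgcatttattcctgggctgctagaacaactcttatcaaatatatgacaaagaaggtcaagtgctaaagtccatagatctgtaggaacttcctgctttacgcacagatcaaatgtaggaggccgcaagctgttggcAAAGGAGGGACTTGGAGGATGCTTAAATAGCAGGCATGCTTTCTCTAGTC
Lyz2, chr10:117282273-117282522: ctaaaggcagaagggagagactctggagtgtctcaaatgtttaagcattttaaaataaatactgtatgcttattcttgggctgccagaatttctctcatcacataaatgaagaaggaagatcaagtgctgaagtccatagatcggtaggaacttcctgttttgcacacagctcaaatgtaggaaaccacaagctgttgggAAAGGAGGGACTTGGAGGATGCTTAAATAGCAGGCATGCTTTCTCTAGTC
Compared without gaps, 60.8% of the 250 positions were identical, and the shared run was the last 50 bases before the start. Both held AGGAAGT, the core bound by factors of the ETS family such as PU.1 of macrophages, on the reverse strand at 94 to 100 bases before the start. Both also held TCAAGTG, a core bound by homeodomain factors of the NK2 class, to which the lung factor Nkx2-1 belongs, at 124 to 130 bases before it.

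These motifs were chosen after the sequences had been read, and both strands were searched. Of the 7 members with a promoter in the RefSeq table, 5 held AGGAAGT, against 7.8% of 27025 promoters. TCAAGTG was in 2 of the 7, both lysozymes, against 2.74% of promoters. Each of these motifs lies at the same place in the 2 related lysozyme promoters, so the lysozyme matches are not independent and the counts cannot be weighed against the shares. The PU box GAGGAA, which can overlap AGGAAGT by 5 bases, as it did in C1qc, was in C1qb, C1qc, Cd68, Mrc1 and Marco but in neither lysozyme, against 23.1% of promoters. A match is a description of letters and says nothing about binding in these lungs.

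The lysozymes are among the brightest probe sets, so each pair was also read against probe sets of like brightness. Of the 450 probe sets with a mean log2 of 12 or more, 5 had a pair 2 difference as low as that of Lyz2, itself included, and 3 of these 5 were lysozyme probe sets. In pair 1 this number was 8 of 450. In pair 3 it was 68 of 450, or 15.1%, so the value of Lyz2 in that pair lay within the spread of probe sets of its brightness. The bright Lyz1 probe sets lay lower in pair 3, with 9 and 5 of the 450 at or below them.

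**Figure D2:**
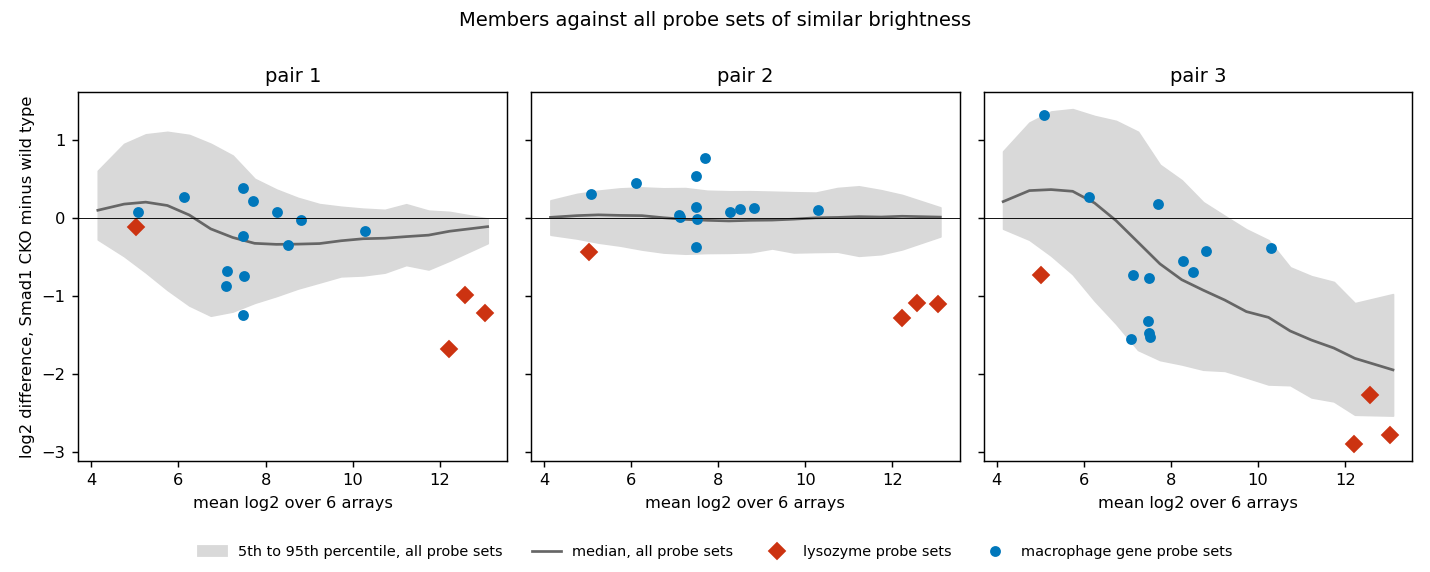
Pair differences (log2, Smad1 CKO minus wild type) of the lysozyme (red) and macrophage (blue) probe sets against their mean log2 over 6 arrays, 1 panel per pair. Grey marks the 5th to 95th percentile of all probe sets of similar brightness and the grey line their median. The 3 bright lysozyme probe sets lie under the grey band in pairs 1 and 2, while the band itself lies low at high brightness in pair 3, where Lyz2 lies inside it and both bright Lyz1 probe sets under it.

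Markers of alveolar type 2 cells moved with the lysozymes, and their part in the lysozyme difference was not tested. Of 15 measured type 2 markers 12 were lower in all 3 pairs, against 29.3% of all genes. That share was larger among bright probe sets, at 44.2% to 50.3% in the ranges from a mean log2 of 8 upwards. The type 2 markers had pair medians of -1.10, -0.84 and -2.21, beside -1.11, -1.10 and -2.53 for the lysozymes. The summed intensity of the type 2 markers ran from 16026 to 53395 in Smad1 CKO lungs and from 84512 to 98138 in wild type lungs, and none was at 0. Sftpb, which encodes surfactant protein B, differed by -1.10, -0.84 and -2.78 in the pairs. Sftpc, surfactant protein C and found in type 2 cells alone in the adult lung, differed by -0.50, -0.27 and -2.09, less than Lyz2 in each pair. Sftpa1, surfactant protein A, differed by -4.81, -4.35 and -6.34, more than Lyz2 in each. The markers were not uniform: Sftpd, surfactant protein D, differed by 0.01, 0.09 and -1.57, Muc1 by 0.11, 0.37 and -1.64, and Cd74 by -0.17, 0.38 and -0.28. Napsa, which encodes a protease that processes surfactant protein B, differed by -0.03, -0.02 and -1.57.

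The genes whose level followed Lyz2 most closely over the 6 arrays were Cldn5, Srgn, Cdh5, Aldh1a1 and Arap3, with Pearson correlations of 0.9986 to 0.9994 among 9567 genes. Their pair differences ran from -0.54 to -0.80 in pairs 1 and 2 and from -1.33 to -1.80 in pair 3. Lyz1 followed at 0.993, in place 25, and Sftpb at 0.989, in place 60. The other surfactant protein genes lay further down. Sftpc was at 0.964, in place 613, Sftpd at 0.89, in place 4388, and Sftpa1 at 0.875, in place 4962. All 6 points share the Smad1 CKO 3 array and the genotype, and high values were common: C1qa, at 0.912, was in place 3274. Cd14 had a correlation of -0.003. The 14 endothelial markers, with Cldn5 and Cdh5 among them, had pair medians of -0.60, -0.50 and -1.51, and their summed intensity was 6341 to 18358 in Smad1 CKO lungs and 19197 to 26555 in wild type lungs, none at 0.

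C1qa, C1qb and C1qc encode the chains of C1q, the molecule that starts the classical complement pathway, and tissue macrophages are their main source. They are direct neighbours on chromosome 4. C1qa had intensities of 115, 221 and 78.6 in Smad1 CKO lungs, against 274, 288 and 198 in wild type lungs. Smad1 CKO lung 2 lay above wild type lung 3, so the groups overlapped. The mean was -0.98 ± 0.52 (SD), with -1.25, -0.38 and -1.32 in the pairs (adjusted p = 0.367).

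The other C1q genes were lower in pairs 1 and 3 and close to 0 in pair 2. The brightest probe set of C1qb read 120, 215 and 102.5 in Smad1 CKO lungs, against 203, 219 and 298 in wild type lungs, with pair differences of -0.75, -0.02 and -1.53 and a mean of -0.77 ± 0.75 (adjusted p = 0.367). Its other 2 probe sets gave 0.14 and 0.03 in pair 2, against -1.48 and -1.55 in pair 3. C1qc read 115, 168 and 83.7 in Smad1 CKO lungs, against 185, 166 and 141 in wild type lungs, with -0.68, 0.01 and -0.74 in the pairs (mean -0.47 ± 0.42, adjusted p = 0.367).

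In the pair that holds neither exceptional array, C1qb and C1qc thus lay within 0.02 (log2) of their wild type mate by their brightest probe sets. In pair 3 the 6 to 8 log2 range of brightness, to which all C1q probe sets belong, had a median of -0.13. Of that range 5.05% to 5.92% of probe sets lay at or below those of C1qb. The C1qb probe sets had mean log2 values of 7.09 to 7.51, in the brighter part of that range. In pair 3 the median was -0.314 and the 5th percentile -1.694 at 7 to 7.5. From 7.5 to 8 these were -0.591 and -1.823, so all C1qb probe sets lay above the 5th percentile for their brightness. The genes most like the mean of the 3 C1q genes were Vcpip1, Trnt1, Krit1, Zfp647 and Tada2b, with correlations of 0.9976 to 0.9979 among 9565 genes over the same 6 arrays, and pair 2 differences of -0.03 to -0.22.

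Promoter stretches of C1qb and C1qc are shown because AGGAAGT lies in both, as in the lysozymes. RefSeq sequence on GRCm38.p6 is given 5′ to 3′ on the gene's strand (minus for C1qb and C1qc, plus for Mrc1), with the motif or its reverse complement in capitals.
C1qb, chr4:136886220-136886279: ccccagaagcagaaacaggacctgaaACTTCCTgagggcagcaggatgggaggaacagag
C1qc, chr4:136893076-136893135: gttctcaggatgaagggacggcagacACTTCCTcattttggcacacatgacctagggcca
Mrc1, chr2:14229177-14229236: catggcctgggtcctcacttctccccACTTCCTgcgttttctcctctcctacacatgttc

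Csf1r encodes the receptor for the growth factors CSF1 and IL-34 and is the defining receptor of the macrophage lineage. Its brightest probe set read 1200, 1554 and 892 in Smad1 CKO lungs, against 1351, 1452 and 1173 in wild type lungs. The groups overlapped. The difference was -0.16 ± 0.25, with a 95% interval of -0.64 to 0.33 (adjusted p = 0.642) and -0.17, 0.10 and -0.39 in the pairs. In pair 3 96.1% of the 2155 probe sets of its brightness (mean log2 of 10 to 12) lay at or below this value, and their median was -1.44. The other 2 probe sets gave -0.11 and -0.13, with 0.13 and 0.08 in pair 2. All 3 had a positive difference after cyclic loess normalization between arrays, at 0.25 to 0.39. With quantile normalization instead, the 3 differences were 0.21 to 0.36, so Csf1r had no settled direction.

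Cd68 encodes a glycoprotein of lysosomes and endosomes that is used to stain macrophages. It read 232, 296 and 87.7 in Smad1 CKO lungs, against 178, 204 and 150 in wild type lungs. Smad1 CKO lungs 1 and 2 lay above all wild type lungs and Smad1 CKO lung 3 below them. The pair differences were 0.38, 0.53 and -0.77, with a mean of 0.05 ± 0.71 (adjusted p = 0.932), and 0.46 without pair 3. In pair 2 its value was higher than that of most probe sets of its brightness, with 98.3% at or below it.

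Mrc1 and Marco are uptake receptors. Mrc1, the mannose receptor, read 387, 508 and 177 in Smad1 CKO lungs, against 495, 470 and 286 in wild type lungs, so the groups overlapped. The pair differences were -0.35, 0.11 and -0.69 (mean -0.31 ± 0.40, adjusted p = 0.439), and the mean was 0.099 after cyclic loess normalization. Marco, a scavenger receptor of alveolar and other macrophages, read 71.6, 108 and 58.9 in Smad1 CKO lungs, against 59.5, 79.1 and 49.2 in wild type lungs. It was higher in each Smad1 CKO lung than in its pair mate, by 0.26, 0.44 and 0.26, but the groups overlapped because levels differed between pairs (mean 0.32 ± 0.10, 95% interval -0.13 to 0.77, adjusted p = 0.382). This probe set was below the array median on 4 of 6 arrays, and the other probe set of Marco was dimmer still, with 0.08, 0.31 and 1.32.

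Cd14 encodes a co-receptor for bacterial lipopolysaccharide. It read 208, 342 and 185 in Smad1 CKO lungs, against 180, 202 and 165 in wild type lungs. Smad1 CKO lungs 1 and 2 lay above all wild type lungs, while Smad1 CKO lung 3 lay between wild type lungs 1 and 2. The pair differences were 0.21, 0.76 and 0.17, with a mean of 0.38 ± 0.33 and a 95% interval of -0.15 to 0.90 (adjusted p = 0.378). By gene, Cd14 and Marco were the 2 of 8 macrophage genes higher in every pair, against 21% of all genes, and C1qa and C1qb the 2 of 8 lower in every pair, against 29.3%. With 8 genes, neither count stands out from these shares.

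**Figure D3:**
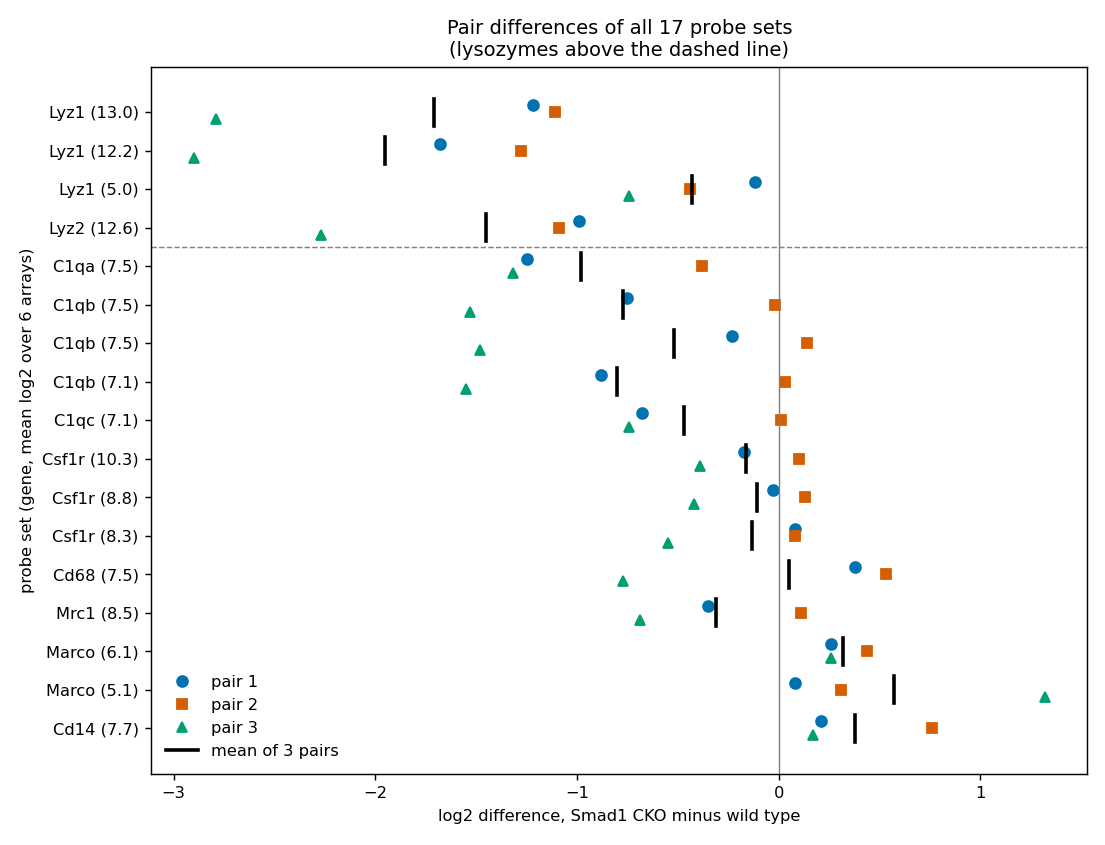
Pair differences (log2, Smad1 CKO minus wild type) of all 17 probe sets, labelled by gene and by mean log2 over 6 arrays, with a black bar at the mean of 3 pairs. Lysozyme probe sets, above the dashed line, lie left of 0 in every pair. Pair 2 (squares) lies at or right of 0 for most macrophage genes and left of 0 for C1qa.

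Other lists of the same cells and pathways gave the setting. The 23 other macrophage markers had pair medians of -0.07, 0.14 and 0.05, with 3 lower and 6 higher in every pair. Their summed intensity was 5002 to 8579 in Smad1 CKO lungs and 6748 to 7784 in wild type lungs, and 5 were below the array median on all arrays. Those with the smallest p were Mertk, a receptor for uptake of dying cells, at -0.98 ± 0.63, Stab1, a scavenger receptor also of endothelium, at -0.65 ± 0.30, Trem2 at 0.41 ± 0.37 and Vsig4 at 0.33 ± 0.19. Mertk had pair differences of -0.64, -0.60 and -1.70, and the pair 2 values of Stab1, Trem2 and Vsig4 were -0.36, 0.03 and 0.18. Groups did not overlap for 2 of the 23, Mertk among them, both with Smad1 CKO lower, against 6.05% of all genes. The 12 pan-leukocyte genes had medians of -0.03, 0.21 and -0.35, with 2 lower and 1 higher in every pair. Among them Lcp1 was at -0.78 ± 0.88, Laptm5 at -0.37 ± 0.61, Cd48 at -0.27 ± 0.26 and Coro1a at -0.30 ± 0.66. In pair 2 these were -0.11, 0.20, -0.04 and 0.14, and Coro1a was lower in pair 3 alone. None of these passed over all probe sets, and nor did any gene of the lists below.

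Lists of ligands, regulators and partners of the members held more genes lower than higher in every pair, with pair 2 medians of -0.07 to 0.09. So did probe sets of the whole table from a mean log2 of 6 upwards. At 6 to 8, 30.1% were lower and 19% higher in every pair. These shares were 50.3% and 2.8% at 8 to 10, and 47.3% and 0.928% at 10 to 12. The 12 genes of the CSF1 and CSF2 axis, which maintain macrophages, had pair medians of -0.20, -0.03 and -0.63, with 3 lower and 0 higher in every pair. The transcription factors Mitf, Klf4 and Irf8 had means of -0.81 ± 0.37, -0.97 ± 0.97 and -0.57 ± 0.49, with -0.40, -0.11 and -0.33 in pair 2, and the groups did not overlap for Klf4. Csf1, the ligand of the Csf1r receptor, differed by 0.58, -0.09 and 1.00. The 8 genes of lipopolysaccharide recognition had medians of -0.23, 0.05 and -0.46, with 2 lower and 1 higher in every pair. Ly96, which encodes MD-2, the partner of the receptor TLR4, was at -0.45 ± 0.16, with -0.36 in pair 2. The 8 partners of C1q and early complement genes had medians of -0.22, 0.06 and -0.69, with 2 lower and 0 higher in every pair. Cd93, made mainly by endothelial cells, was lowest among them at -1.17 ± 0.86, with -0.63 in pair 2. The 12 scavenger and lectin receptors had medians of -0.35, -0.07 and -0.64, and 5 were lower in every pair and 0 higher. The share lower was 41.7%, against 29.3% of all genes. This list mixes dim and bright genes, with 3 below the array median on all arrays. Shares by brightness ran from 7.34% under a mean log2 of 6 to 50.3% at 8 to 10. A share matched to this list was not computed. Mrc2 was at -0.65 ± 0.18 and Colec12 at -1.11 ± 0.94, with -0.58 and -0.19 in pair 2. The 13 lysosome genes had medians of -0.29, 0.09 and -1.50, with 4 lower and 0 higher in every pair. All 13 means were below 0, from -0.95 to -0.17, and Lamp1 was at -0.72 ± 0.67, with -0.28 in pair 2. Their median difference was -0.57, with -1.50 in pair 3. Probe sets of the whole table with a mean log2 of 10 to 12 had -0.56, with -1.44 in pair 3.

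Markers of other blood cells, some of which also make Cd14 or lysozyme, had pair 2 medians of -0.05 to 0.20. The 12 monocyte and neutrophil markers had pair medians of -0.12, 0.16 and 0.08. Among them S100a9, a calcium-binding protein of neutrophils, was at -0.86 ± 0.45, with groups that did not overlap, and the monocyte receptor Ccr2 was at 0.60 ± 0.30. Their pair 2 values were -0.38 and 0.26. Lymphocyte markers (9 genes) had medians of 0.17, -0.03 and 0.24, and erythroid markers (6 genes) had 0.08, -0.05 and -0.68. The 7 mast cell markers had medians of 0.30, 0.20 and 0.32, with the chymase Cma1 at 1.07 ± 0.36 and Kit, not confined to mast cells, at -1.39 ± 0.31. In pair 2 these were 1.41 and -1.16. The 10 epithelial markers had medians of -0.02, 0.21 and -1.05.

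**Figure D4:**
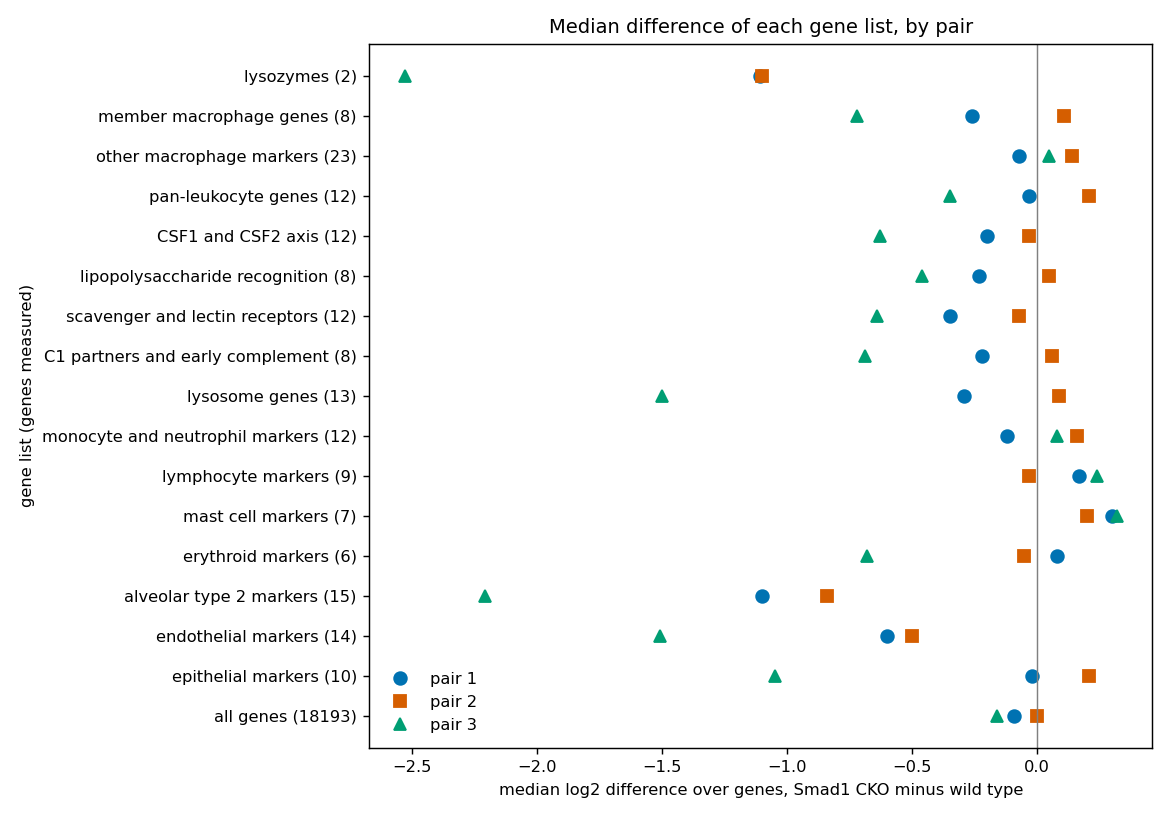
Median log2 difference (Smad1 CKO minus wild type) over the genes of each list, 1 symbol per pair, with the number of genes measured in brackets. In pairs 1 and 2 lysozymes and alveolar type 2 markers lie near -1 and endothelial markers between -0.60 and -0.50, while the lists of macrophage and leukocyte genes lie between -0.26 and 0.21.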

How the data were processed

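Total RNA of 6 left lung lobes was hybridised as biotin-labelled cRNA, 1 array per animal, per the labels' protocols. Each deposited number is a linear intensity per probe set, and the submitters' processing notes name RMA without its software or settings. Upper quartiles of the deposited columns still ran from 170.3 to 283.8. The number of arrays limits the precision, and p-values rest only on the spread within these samples.

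Intensities were turned into log2(value + 1), which slightly shrinks differences of dim probe sets. The 64 control probe sets were left out. Symbols came from the platform annotation, and a gene was represented by the probe set with the highest mean. Genotype was tested on all 45037 probe sets with limma 3.58.1 in R 4.3.3 (lmFit, eBayes, two-sided), with a fixed term for the pair and p-values adjusted by Benjamini-Hochberg (threshold 0.05). SDs are over 3 pair differences of the probe set itself. Intervals and p-values use the eBayes variance instead, which is drawn towards that of all probe sets, so an interval need not match the SD beside it. The design text speaks of pairs, and mates were matched by the letter in their array names. What a pair shares, such as a litter or a day, is not given in the labels. Deviations from group means correlated within pairs at 0.258, 0.604 and 0.597, and at 0.215 or lower between them. Exact permutation cannot go below 0.1, or 0.25 within pairs, and was not used. The fit was tested on simulated data with planted changes.

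By rule the text describes every probe set of the 10 genes, up to 4 genes of each other list with the smallest p, 3 surfactant genes (Sftpa1, Sftpb, Sftpc) as checks, and the 5 genes most correlated with Lyz2 and with the C1q mean (mean log2 of 7 or more). Sftpd, Muc1, Cd74 and Napsa were added after their values were seen. The members, lists and tests were chosen with earlier results of these data known. The alternatives were a fit without the pair, a pseudocount of 16, other normalizations, an intensity trend, a filter on dim probe sets, array weights, other probe set rules and left-out arrays.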

Additional observations from a re-analysis of the deposited data

How the results depend on the processing

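With 3 pairs and 2 residual degrees of freedom no member passed, and a missing call says little about stability. The median difference of the lysozymes stayed negative under all 12 alternatives, from -1.82 to -0.90, and each lysozyme probe set stayed negative under every alternative that gave it a value. That of Lyz2 ranged from -1.68 to -0.78 around -1.45. The median of the macrophage genes was 0.16 after cyclic loess, 0.035 after quantile normalization and 0.089 in an unpaired fit of 2 Smad1 CKO against 3 wild type arrays (without Smad1 CKO 3), beside -0.23 as reported. With 1 pair left out it ran from -0.40 to -0.078. The cause was not tested. Cd68 turned to -0.12 without pair 1 and -0.19 without pair 2, and was 0.46 without pair 3, and Mrc1 to 0.099 after cyclic loess and 0.13 without Smad1 CKO 3. The second C1qb probe set was 0.00089 without that array.

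The 3 probe sets of Csf1r, brightest first, turned to 0.39, 0.33 and 0.25 after cyclic loess and 0.36, 0.25 and 0.21 after quantile normalization. Without Smad1 CKO 3 they were 0.049, 0.18 and 0.0072. With 1 pair left out the second ran from -0.22 to 0.047 and the third from -0.24 to 0.08, highest without pair 3, and the third was 0.055 with array weights.

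The count of probe sets called over the whole table was 1. It was 0 with no replicate block (the fit without the pair), where Lyz2 was at -1.45 with an adjusted p of 0.586, 0 with a pseudocount of 16 and 0 after quantile normalization. At an unadjusted p under 0.05 these limma fits held 1643, 4656 and 4151 probe sets. It was 2 after cyclic loess, 32 with an intensity trend, 16 among probe sets with a mean log2 of 6 or more, and 0 to 28 with 1 pair left out. No member was among these calls, with a lowest adjusted p of 0.0991 for Lyz1 (without pair 3). Array weights called 23234 probe sets, 10 of them members. Both arrays of a pair get the same weight in this design, 7.05 in pair 1 and 0.28 in pair 3, so that fit rests nearly on pair 1 alone.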
